A study of Mus musculus with 4 samples.

Results

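Interferon-high cells were the deep cell barcodes of MC38 tumours with the highest summed expression of 8 interferon-induced genes. Counted by unique molecular identifiers (UMIs, 1 per captured transcript molecule), a barcode was eligible with at least 5000 UMIs and with 0 UMIs over Ptprc, which encodes the leukocyte antigen CD45, and 6 T cell receptor complex genes (Cd3e, Cd3d, Cd3g, Trac, Trbc1 and Trbc2). Its interferon score was the number of UMIs of Gbp2, Gbp3, Igtp, Irgm1, Ifit1, Ifit3, Isg15 and Rsad2 per 10000 UMIs of the cell. Cells at or above the 95th percentile of the score over both libraries pooled were kept; they were thus chosen by measured values of these 8 genes. This gave 808 of the 18778 barcodes. The remaining 15335 eligible cells are called the rest.

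MC38 is a mouse colon carcinoma line. It was grown as tumours in wild-type mice and in FOXP3 humanized mice, 10 weeks old and without treatment, and tumours were taken on day 20. After dissociation a Percoll density gradient was used to enrich infiltrating leukocytes, and the labels call the captured cells immune cells. Each genotype gave 1 droplet cDNA library, so a difference between genotypes cannot be told apart from a difference between mice or libraries, and the labels do not say how many mice or tumours entered a library. Which part of FOXP3 is humanized is not given in the sources used here.

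Interferons are secreted proteins that signal to neighbouring cells. Type I interferons such as interferon beta are induced by foreign or misplaced nucleic acid, and interferon gamma comes mainly from activated T cells and natural killer cells. Their receptors act through JAK kinases: type I interferon assembles STAT and IRF proteins, among them STAT2 and IRF9, into a complex that binds interferon-stimulated response elements (ISREs), and interferon gamma yields STAT dimers that bind gamma-activated sites (GASs) and induce IRF1. In tumour cells both are known to raise antigen presentation and T cell-attracting chemokines, and interferon gamma is the main inducer of GTPases of the GBP and IRG families.

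The rule joined 2 arms of this response: 4 GTPase genes (Gbp2, Gbp3, Igtp, Irgm1) and 4 antiviral genes (Ifit1, Ifit3, Isg15, Rsad2). Promoter sequence is shown for 2 genes of each arm and for Cxcl10, the interferon-induced chemokine gene with the most UMIs in these cells, because all rule genes carried ISRE-like letters near the start and Igtp also GAS-like ones. Sequences are RefSeq windows of build GRCm38.p6, from 250 bases before to 50 after the annotated gene start, printed 5′ to 3′ on the gene's strand. The counts were made on build GRCm39, and no coordinate was converted. Capitals mark matches, on either strand, to GAAA, any 2 bases and GAAA again (an ISRE-like motif) and, in Igtp, also to TTCNNNGAA (a GAS-like motif), which lies just before the ISRE-like one without overlap.
Gbp2 (chr3:142620413-142620712, plus strand): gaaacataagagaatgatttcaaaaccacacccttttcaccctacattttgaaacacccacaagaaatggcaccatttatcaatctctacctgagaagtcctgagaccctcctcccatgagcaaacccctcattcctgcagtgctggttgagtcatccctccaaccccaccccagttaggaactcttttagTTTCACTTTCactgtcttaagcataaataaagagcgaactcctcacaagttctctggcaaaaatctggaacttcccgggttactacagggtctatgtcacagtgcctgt
Igtp (chr11:58199306-58199605, plus strand): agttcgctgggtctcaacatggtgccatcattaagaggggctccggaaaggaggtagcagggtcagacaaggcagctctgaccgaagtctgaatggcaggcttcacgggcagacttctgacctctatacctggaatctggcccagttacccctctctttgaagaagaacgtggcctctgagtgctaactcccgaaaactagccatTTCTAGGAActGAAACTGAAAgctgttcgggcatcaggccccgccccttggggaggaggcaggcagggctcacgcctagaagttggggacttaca
Ifit3 (chr19:34583279-34583578, plus strand): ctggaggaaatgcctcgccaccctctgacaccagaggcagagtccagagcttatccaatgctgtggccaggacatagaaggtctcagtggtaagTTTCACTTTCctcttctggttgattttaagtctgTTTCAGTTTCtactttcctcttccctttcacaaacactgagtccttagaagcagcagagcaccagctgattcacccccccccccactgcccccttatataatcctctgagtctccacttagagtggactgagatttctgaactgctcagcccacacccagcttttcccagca
Isg15 (chr4:156200769-156201068, minus strand): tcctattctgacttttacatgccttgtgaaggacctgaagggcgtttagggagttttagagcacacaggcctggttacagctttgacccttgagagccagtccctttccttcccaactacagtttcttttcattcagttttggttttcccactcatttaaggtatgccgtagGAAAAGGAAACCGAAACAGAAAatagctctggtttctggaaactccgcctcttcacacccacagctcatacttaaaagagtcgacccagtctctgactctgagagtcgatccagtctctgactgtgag
Cxcl10 (chr5:92348840-92349139, minus strand): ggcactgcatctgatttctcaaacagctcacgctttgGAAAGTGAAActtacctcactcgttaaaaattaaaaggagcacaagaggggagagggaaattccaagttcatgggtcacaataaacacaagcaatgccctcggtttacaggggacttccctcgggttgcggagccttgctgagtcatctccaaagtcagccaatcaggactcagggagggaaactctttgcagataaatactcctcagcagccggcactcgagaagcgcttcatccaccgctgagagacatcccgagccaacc

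Distances run from the annotated start to the leftmost base of a match as printed. Gbp2 held 1 ISRE-like match, 59 bases before the start. In Igtp the ISRE-like match lay 34 and the GAS-like match 45 bases before it. Ifit3 held 2 ISRE-like matches, at 156 and 122 bases, and Isg15 held 3 that overlap one another, at 78, 72 and 66 bases. The Cxcl10 match lay farther out, at 213 bases. All 8 rule genes had an ISRE-like match in a window, against 3.99% of the 27025 genes with a window. The GAS-like letters were found in 1 of the 8, Igtp, against 9.55% of genes. Of the 25 genes outside the rule that differed most from the rest (named below), 16 had a window, and 9 of these (56.25%) held the ISRE-like and 4 the GAS-like letters. No MHC class II gene of 6 with a window held either motif. A match describes the letters of these windows and says nothing of a factor bound there.

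Whether these interferon-responding cells carry tumour markers was checked. Of 8 epithelial markers, Krt18, Krt7, Epcam, Cldn4 and Cldn7 were at 0 UMIs in the interferon-high cells of both libraries. The 8 together reached 2.76 UMIs per 1000000 UMIs summed (CPM) in wild-type and 4.01 CPM in humanized interferon-high cells, against 6.33 and 3.12 CPM in the rest, so these markers do not show the cells to be epithelial, nor the rest. The fibroblast markers Col1a2 and Col3a1 were present at 86.8 and 54.9 CPM in wild-type and 89.2 and 88.3 CPM in humanized interferon-high cells, with 66.8 and 47.8 CPM and 81.7 and 69.7 CPM in the rest. The 8 fibroblast markers together summed to 195 and 268 CPM in interferon-high cells, against 175 and 212 CPM in the rest. Of these, Lum was at 0, and the 5 compared had log2 ratios from -0.75 to 1.31. For that reason the cells are named by their rule.

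Markers of other cells were at low levels or at 0. Ptprc and the 6 T cell receptor complex genes were at 0 by the rule, and Cd2 was at 0 as well. Lck, a T cell kinase, was not: it gave 12 and 7 UMIs and made up the list's 1.84 and 1.22 CPM, against 1.62 and 1.17 CPM in the rest. Among 15 macrophage and monocyte markers, which summed to 10.7 and 10.3 CPM against 9.59 and 9.58 CPM in the rest, Adgre1, C1qa, Itgam, Mrc1, Fcgr1 and Ms4a7 were at 0. Another 1 of the 15 had at least 20 UMIs in the interferon-high cells of each library, with log2 ratios of 0.26 and 0.18 over the rest. The neutrophil markers summed to 0.77 and 1.39 CPM against 0.54 and 0.90 CPM. Among dendritic cell markers Itgax, Xcr1, Clec9a, Siglech and Ccr7 were at 0, but Zbtb46 gave 33 and 21 UMIs and Flt3 0 and 2, and the list of 7 summed to 5.06 and 4.01 CPM against 5.48 and 3.19 CPM in the rest. The natural killer markers Ncr1, Klrb1c, Klrd1 and Prf1 and the B cell marker Cd79b were also at 0. Any of 24 leukocyte markers gave a UMI in 14 of 364 wild-type interferon-high cells (3.85%) and in 13 of 444 humanized ones (2.93%), and in 2.53% and 2.49% of the rest. These 24 markers gave 15 and 16 UMIs in interferon-high cells, fewer than Zbtb46 alone, so they do not hold every marker named above.

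Barcodes numbered 7691 in the wild-type library, with 134214718 UMIs, and 11087 in the humanized one, with 147738781 UMIs. After the depth and T cell limits 6606 and 9537 barcodes were eligible, and 2066 and 569 barcodes of both libraries fell to the first and second limit. Interferon-high cells had median depths of 15630 UMIs (wild-type) and 10799 UMIs (humanized), against 16864 and 12563 in the rest. Thinned to 5000 UMIs, they showed a median of 1832 and 1709.5 genes, against 1801 and 1687. Barcodes carry running names, not sequences: 1551 names stood in both libraries, 4 of them among the interferon-high cells, and shared cells cannot be read from them.

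Interferon-high cells made up 5.51% of eligible cells in the wild-type library (364 of 6606, exact binomial 95% interval 4.97 to 6.09) and 4.66% in the humanized library (444 of 9537, 4.24 to 5.10). Intervals here and below cover counting error alone, with no spread between mice. The percentile fixes the pooled share, so only its split between libraries was free. The score was 0 in 68.6% of wild-type and 77.4% of humanized eligible cells, and the humanized cells were shallower. There was no gap at the limit of 2.33: the lowest interferon-high cell had 4 rule UMIs of 17161 (score 2.3309) and the highest cell of the rest had 2 of 8602 (2.325). Within 10% of the limit lay 60 interferon-high cells and 64 cells of the rest.

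**Figure D1:**
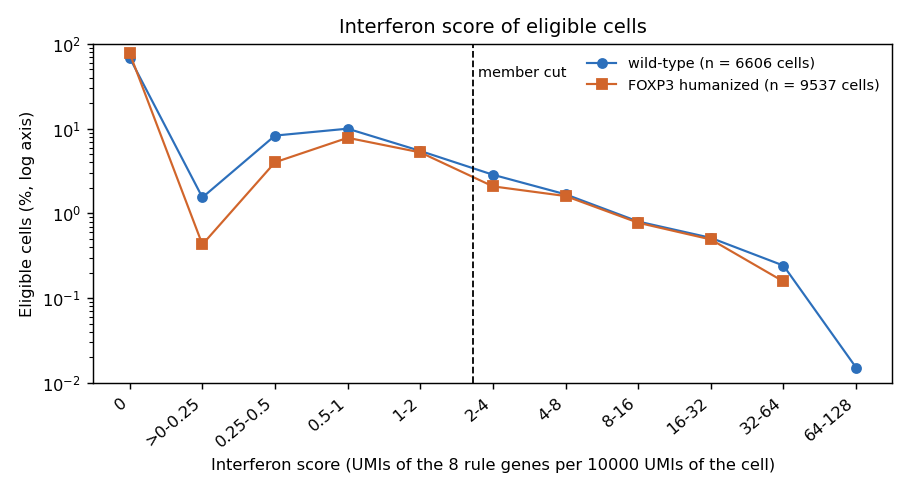
Share of eligible cells (percent, log axis) in bins of the interferon score, for the wild-type (circles) and humanized (squares) library; the dashed line marks the limit for interferon-high cells and lines join the bins of a library. Most cells had a score of 0 (68.6% and 77.4%), and the shares fell without a gap across the limit up to scores of 70.7 and 59.2.

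The 8 rule genes are described without a test, since they chose the cells. Their summed level was 812 CPM in wild-type and 832 CPM in humanized interferon-high cells, against 20.7 and 16.9 CPM in the rest. Isg15, a ubiquitin-like protein that is conjugated to other proteins, was at 218 and 180 CPM against 5.79 and 4.16 CPM. Gbp2, a guanylate-binding protein that attacks pathogen vacuoles, was at 179.6 and 249 CPM against 4.29 and 4.29 CPM. Single cells seldom showed the whole set: 12 wild-type and 4 humanized cells had a UMI of all 8 genes, and 34 and 49 cells had UMIs of a single rule gene. By rule UMIs, 74 cells of both libraries had 2, 92 had 3, 330 had 4 to 9 and 312 had 10 or more, so membership of the lowest classes rested on few molecules.

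Outside the rule, UMIs were summed per library over interferon-high cells and over the rest, and a gene was called higher or lower where both libraries differed at least 1.5-fold the same way with both 95% counting intervals excluding no difference. Among 9823 genes with at least 20 UMIs in the interferon-high cells of each library, 203 (2.07%) were higher and 11 (0.112%) lower, and the median log2 ratio over all of them was 0.01 for wild-type and 0.02 for humanized cells. Pairs of values below give the wild-type library first. The score chose the cells from the same counts, so these differences describe what accompanied the 8 genes and are not tests. The requirement of 20 UMIs also admits genes that are high only in these cells and leaves out genes that are very low in them. With 20 UMIs expected from the level over all eligible cells instead, 124 genes were higher and 18 lower. The list counts below use the first requirement and were not recounted with the second, so they share this limit.

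GTPases of the rule's own families came with it. The 16 further GBP and IRG genes, which encode GTPases that attack vacuoles and membranes of intracellular pathogens, included 11 that could be compared, and all 11 were higher, with a median log2 ratio of 4.32 and 4.66. Iigp1, an IRG GTPase, was at 35.9 and 31.4 CPM in wild-type and humanized interferon-high cells and at 0.70 and 0.42 CPM in the rest, a log2 ratio of 5.68 and 6.21. Gbp7 was at 74.7 and 62.0 CPM against 3.79 and 2.29 CPM. The lowest ratio was that of Gbp5, at 6.90 and 5.92 CPM against 1.78 and 0.85 CPM (log2 ratio 1.95 and 2.80). The other members were Gbp4, Gbp6, Gbp8, Gbp9, Irgm2, Ifi47, Tgtp1 and Tgtp2. Most had few UMIs in the rest, such as Gbp4 with 29 and 15. At their level over all eligible cells, only Gbp7 and Ifi47 would have met the UMI minimum in both libraries. The others met it in both only by being high in interferon-high cells, so the count of 11 higher was largely set by that requirement. The calls of Gbp7 (log2 ratio 4.30 and 4.76) and Ifi47 (3.71 and 3.55) do not depend on it. Gbp10 and F830016B08Rik had too few UMIs, and Gbp2b, Gm12250 and Gm4951 were not listed with a UMI in these cells.

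Antiviral effectors were higher in 28 of the 32 members that could be compared, of 39 in the list, with median log2 ratios of 2.20 and 2.29. Ifit3b, a copy of the rule gene Ifit3 that binds foreign RNA, had the largest ratio of all genes ranked: 23.5 and 16.7 CPM against 0.12 and 0.18 CPM, log2 7.55 and 6.52. Cmpk2, a mitochondrial nucleotide kinase, was at 15.6 and 17.6 CPM against 0.28 and 0.28 CPM. Bst2, which tethers virus particles to the cell, was at 655 and 524 CPM against 132 and 109 CPM. Ifitm3, which blocks virus entry, was at 1726 and 1558 CPM against 569 and 584 CPM.
The oligoadenylate synthetases Oas1a, Oas2, Oas3 and Oasl2, which sense double-stranded RNA or derive from such sensors, were called higher with log2 ratios of 3.32 to 4.93. Isg20, Zc3hav1, Ifi27 and Shisa5 were compared and not called, with log2 ratios from 0.42 to 0.82. Oasl1, at 50 and 15 UMIs in interferon-high cells against 15 and 6 in the rest, missed the UMI minimum in the humanized library, and 6 other members missed it in at least 1 library. Near-identical neighbours such as Ifit3 and Ifit3b, Tgtp1 and Tgtp2, Iigp1 and Iigp1c, or Apol9a and Apol9b may share reads, and how the authors' counting split them is not given, so their separate levels are uncertain.

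Each of the 10 genes for ISG15 conjugation and ADP-ribosylation was higher (median log2 2.24 and 2.46). Usp18, the protease that removes ISG15 and damps type I receptor signalling, was at 42.3 and 25.1 CPM against 0.83 and 0.51 CPM, log2 5.67 and 5.61. Parp14, an ADP-ribosyltransferase, was at 58.3 and 53.8 CPM against 5.49 and 4.28 CPM. Of 14 nucleic acid sensors and adaptors compared, 11 were higher (median log2 2.36 and 2.74). Zbp1, a sensor of Z-form nucleic acid, was at 41.6 and 32.4 CPM against 1.52 and 1.05 CPM. Ifih1 and Rigi, sensors of double-stranded RNA, had log2 ratios of 2.43 and 2.89 and of 2.28 and 2.58. The adaptors downstream of such sensors did not reach the call: Mavs was at 13.8 and 12.5 CPM against 14.2 and 11.5 CPM, and Sting1 at 12.6 and 17.9 CPM against 11.1 and 12.2 CPM.

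**Figure D2:**
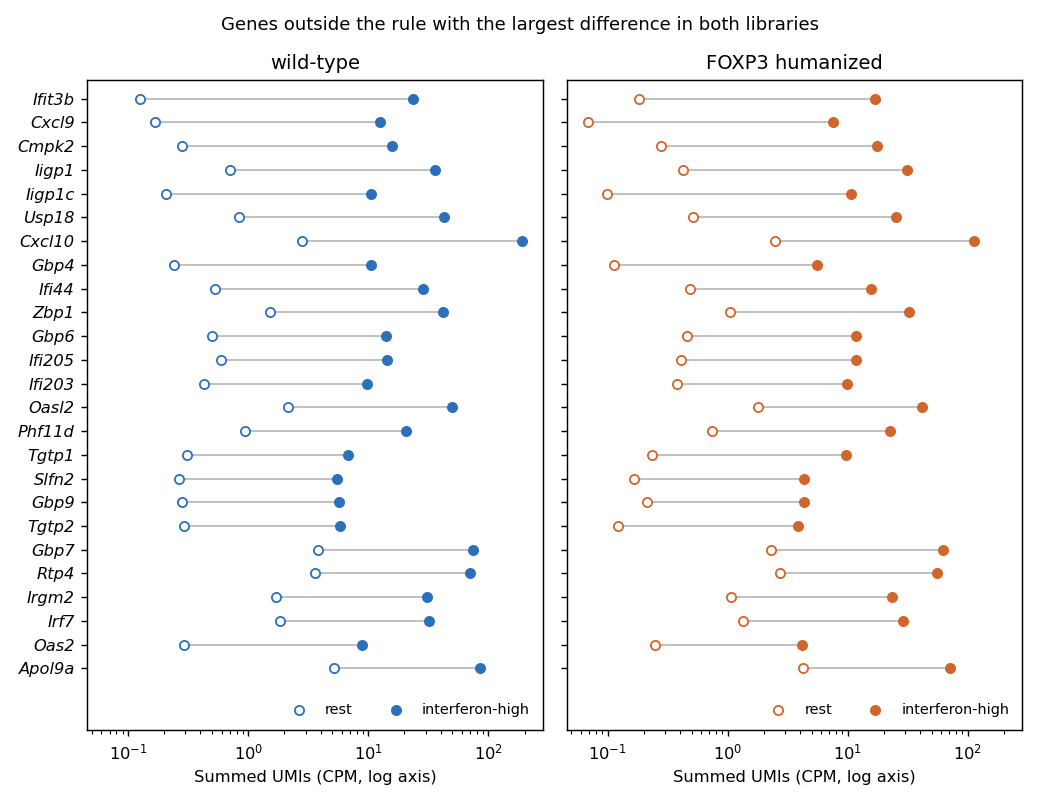
Level (CPM of summed UMIs, log axis) of the 25 ranked genes outside the rule in the rest (open circles) and in interferon-high cells (filled circles), by library. Filled circles stand to the right for every gene in both libraries, from 84.4 against 5.18 CPM for Apol9a to 23.5 against 0.12 CPM for Ifit3b in the wild-type library.

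The 25 genes of largest smaller ratio were, in order, Ifit3b, Cxcl9, Cmpk2, Iigp1, Iigp1c, Usp18, Cxcl10, Gbp4, Ifi44, Zbp1, Gbp6, Ifi205, Ifi203, Oasl2, Phf11d, Tgtp1, Slfn2, Gbp9, Tgtp2, Gbp7, Rtp4, Irgm2, Irf7, Oas2 and Apol9a. Their log2 ratios lay between 4.03 and 7.55. When the score was rebuilt from the 4 antiviral genes alone, Cxcl9, Gbp4, Tgtp1 and Tgtp2 were no longer called, with smaller log2 ratios of 2.00, 2.62, 2.44 and 2.64. With the 4 GTPase genes alone, Oas2 and Slfn2 were not called (3.26 and 3.68). Each of these ratios was above the 1.5-fold limit, so the UMI minimum or a counting interval removed the call. The lost calls therefore do not show that a gene went with a single arm.

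Signal transducers and their receptors differed in this respect. Of 12 genes in a list of STAT and IRF genes with Nlrc5 and Batf2, 10 were higher, with median log2 ratios of 1.64 and 1.80. Nlrc5 and Batf2, which belong to neither family, were among these 10. Stat2 and Irf9, members of the type I complex, had log2 ratios of 2.77 and 2.84 and of 2.16 and 2.09. Irf7, which amplifies type I interferon transcription, was at 32.1 and 28.7 CPM against 1.82 and 1.35 CPM. Irf1, a factor induced by interferon gamma, was at 109 and 95.8 CPM against 23.4 and 24.5 CPM.
Stat3 (log2 0.57 and 0.82) and Irf3 (-0.24 and 0.29) were not called. None of the 7 interferon receptor and JAK genes compared, of 9, was called. Ifngr1, a chain of the interferon gamma receptor, was at 26.8 and 28.9 CPM against 24.1 and 24.1 CPM, and Ifnar1, of the type I receptor, at 13.3 and 15.2 CPM against 14 and 13.5 CPM. Jak1, the kinase both receptors use, was at 94.6 and 93.2 CPM against 90.5 and 85.8 CPM. The lambda receptor chain Ifnlr1 was at 0 in interferon-high cells. Among 6 feedback inhibitors compared, Usp18, Socs1 and Nfkbia were higher, and Socs1, which blocks JAK kinases, was at 51.1 and 44.8 CPM against 24.7 and 22.2 CPM. Ptpn2, a phosphatase acting on JAK and STAT proteins, had log2 ratios of 0.09 and 0.19.

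Interferon transcripts themselves were almost absent from interferon-high cells. The rule left out barcodes with a UMI of Ptprc or of the T cell receptor complex genes. Such barcodes include T and natural killer cells, the main source of interferon gamma, so the Ifng counts below do not describe whole tumours. Of 14 interferon and related cytokine genes, 9 were without a UMI in interferon-high cells, among them all listed alpha and lambda interferons. Ifnb1, the interferon beta gene, was seen in a single barcode of the 18778: it was a humanized interferon-high cell with 3 Ifnb1 UMIs among 5446 and with 21 rule UMIs, a score of 38.6. Ifng gave 0 and 1 UMIs in interferon-high cells and 1 and 14 in the rest. Il15, a cytokine that sustains T and natural killer cells, was the only member with enough UMIs, and it was higher at 12.3 and 15.7 CPM against 3.58 and 3.41 CPM.

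Antigen processing separated by subunit. Each of the 5 immunoproteasome and activator genes was higher, with a median log2 ratio of 1.66 and 1.68. Psmb9, an inducible catalytic subunit, was at 177 and 134 CPM against 40.1 and 25.7 CPM. Psmb8 was at 325 and 221 CPM against 103 and 68.9 CPM, and Psmb10 at 171 and 168 CPM against 46.0 and 44.7 CPM. Of the 14 constitutive proteasome genes none was called, and their median was 0.09 and 0.01. The constitutive counterparts of the inducible subunits, Psmb5, Psmb6 and Psmb7, had log2 ratios of 0.05, 0.14 and 0.10 in the wild-type library and of -0.0055, -0.0037 and -0.084 in the humanized library.

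MHC class I presentation genes were higher in 11 of 15 compared, of 18, with medians of 0.91 and 0.85. Tap1, which carries peptides into the endoplasmic reticulum, was at 113 and 123 CPM against 29.8 and 25.8 CPM. Tapbp, which loads them, was at 247 and 238 CPM against 83.4 and 78.1 CPM. H2-T22, a non-classical class I gene, was at 146 and 146 CPM against 38.0 and 38.0 CPM. The classical heavy chains were abundant in the rest too and differed less: H2-K1 was at 2641 and 2114 CPM against 1667 and 1359 CPM, and H2-D1 (log2 0.48 and 0.47) did not reach the call.
B2m, the light chain, had log2 ratios of 0.62 and 0.60, just above the limit, and fell below it (0.58 in the library with the smaller ratio) when the cell with most of its UMIs was left out. The general chaperones Calr, Canx and Pdia3 had log2 ratios of -0.04 to 0.10. H2 class I genes are close in sequence, so their separate counts are uncertain.

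MHC class II genes, usually confined to professional antigen-presenting cells but inducible by interferon gamma, were higher in 5 of 6 compared, of 9 in the list, with median log2 ratios of 2.61 and 3.19. Cd74, the invariant chain, was at 34.2 and 23 CPM against 6.04 and 2.85 CPM. H2-Aa, a class II alpha chain, was at 22.7 and 23.2 CPM against 2.98 and 1.24 CPM, log2 2.93 and 4.22. A Cd74 UMI was found in 21.2% of wild-type and 10.1% of humanized interferon-high cells and in 4.87% and 2.69% of the rest; after thinning to 5000 UMIs the shares were 9.62% and 6.08% against 1.92% and 1.2%.
Ciita, the class II transactivator, gave 9 and 6 UMIs against 12 and 5 in the much larger rest. Only 1.49% and 0.72% of the class II UMIs of interferon-high cells lay in cells with a leukocyte marker UMI. The 24 markers used for this leave out some markers of leukocytes. In the wild-type rest that share was 35.1%, of which a single cell held nearly all (32.9% of the class II UMIs). Without cells holding a leukocyte marker UMI, the log2 ratios were 3.61 and 4.29 for H2-Aa and 3.09 and 3.03 for Cd74. Class II went with the GTPase arm: with the score of the antiviral genes alone, H2-Aa was not called, at a smaller log2 ratio of 0.38.

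Interferon-induced chemokines were higher in 4 of 5 compared, of 6, with medians of 3.48 and 3.38. Cxcl10, a ligand of Cxcr3, a chemokine receptor of activated T cells, was at 191 and 111 CPM against 2.82 and 2.47 CPM, log2 6.08 and 5.50. Cxcl10 UMIs were found in 29.7% and 21.4% of interferon-high cells and in 4.12% and 2.82% of the rest, and after thinning in 19.2% and 15.8% against 1.15% and 1.13%. Most interferon-high cells thus showed no Cxcl10 transcript at this depth.
Cxcl9, another Cxcr3 ligand, was at 12.4 and 7.49 CPM against 0.17 and 0.07 CPM, but 12 and 17 cells held all of it and 1 wild-type cell held 49.2% of the UMIs of both libraries. Without that cell its smaller log2 ratio was 4.21. Ccl5, a chemokine that attracts T cells, was at 39.3 and 20.0 CPM against 3.52 and 1.93 CPM. Cxcl11 missed the UMI minimum with 30 and 16 UMIs against 8 and 8. The monocyte attractants Ccl2 and Ccl7 were also higher, Ccl2 at 460 and 482 CPM against 94.2 and 178 CPM, whereas the neutrophil attractant Cxcl1 (log2 0.47 and 1.02) was not called.

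Of 12 genes in a list of checkpoint ligands that also holds the enzyme gene Ido1, 5 could be compared and 2 were higher. Cd274, which encodes PD-L1, was at 7.06 and 3.83 CPM against 0.96 and 0.61 CPM, on 46 and 22 UMIs. Lgals9 was at 79.0 and 69.7 CPM against 39.7 and 35.0 CPM. Cd47, a signal against phagocytosis, had log2 ratios of 0.46 and 0.65, and Pvr had 0.15 and 0.31. Pdcd1lg2, the gene of PD-L2, was at 0. Ido1, a tryptophan-degrading enzyme, gave 16 and 11 UMIs against 12 and 7 in the rest, too few for the call.

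Other programmes were close to the rest. None of 20 S phase, 21 G2 and mitosis, 10 integrated stress response, 12 heat shock and immediate-early, 15 glycolysis and hypoxia, 14 sterol synthesis and 3 metallothionein genes compared was called, with list medians between -0.21 and 0.28. Of 14 NF-kappaB targets, Nfkbie, Bcl3 and Vcam1 were higher, and Vcam1, an adhesion molecule, was at 40.6 and 58.9 CPM against 20.5 and 25.8 CPM. Of 12 cell death genes, Fas, a death receptor, and Casp4, an inflammatory caspase, were higher: Fas was at 3.07 and 5.40 CPM against 0.62 and 0.90 CPM, and Casp4 at 15.8 and 20.0 CPM against 6.34 and 6.12 CPM. Of 5 fibroblast markers compared, Col1a1 was higher, at 14.6 and 30.1 CPM against 7.40 and 12.2 CPM.

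**Figure D3:**
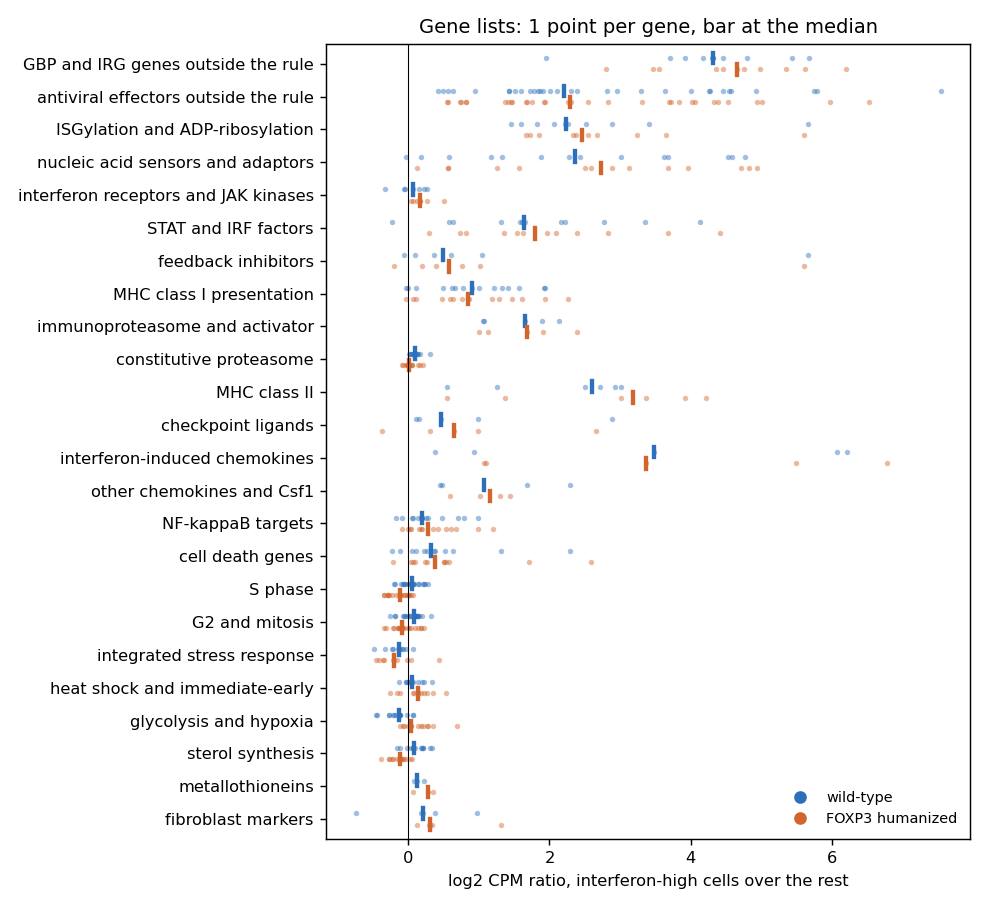
Log2 ratio of CPM, interferon-high cells over the rest, for each compared gene (point) of each list, with the list's median as a bar, in the wild-type (blue) and humanized (orange) library. Medians stood between 4.32 and 4.66 for the GBP and IRG genes and at 0.09 and 0.01 for the constitutive proteasome; a gene needed 20 UMIs in the interferon-high cells of each library to be drawn.

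The genes called lower were few and differed little. The 10 ranked ones were Aldh1l2, Cdsn, Car6, Spats1, Bdnf, Cth, Plet1, Spns3, Prss12 and S100a3, with log2 ratios from -1.68 to -0.60. Car6, a secreted carbonic anhydrase, was at 9.51 and 12.7 CPM against 30.4 and 21.3 CPM. Aldh1l2, a mitochondrial folate enzyme, was at 4.75 and 3.83 CPM against 8.29 and 6.77 CPM, and Cth, which makes cysteine from cystathionine, at 6.6 and 5.40 CPM against 12.2 and 8.31 CPM. No gene was called lower when cells were scored after thinning to 5000 UMIs. The limit was then a score of 2.0, which a single rule UMI reached, so a larger share of cells was taken in. That setting thus changed the cells chosen as well as their depth.

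Across the score the genes outside the rule followed different courses. Cells were placed in 4 classes: score 0, above 0 but below the limit, the 95th to 99th percentile, and the top 1%. Irf1 stood at 21.4, 27.3, 95.1 and 174 CPM in the wild-type library and at 23.3, 28.4, 85.5 and 140.5 CPM in the humanized library. Psmb9 stood at 35.4, 49.4, 171 and 207 CPM and at 22.1, 37.3, 125 and 171 CPM. Psmb9 thus had most of its difference across the limit itself, and Irf1 had a further difference between the upper classes.
Cxcl10 stood at 2.19, 4.07, 62.6 and 802 CPM and at 2.19, 3.37, 34.3 and 447 CPM, highest in the top class. Usp18 had the same order, at 0.63, 1.24, 19.9 and 149 CPM and at 0.36, 1.03, 11.6 and 83.7 CPM. Cd74 in the wild-type library stood at 6.0, 6.11, 34.7 and 31.7 CPM, with overlapping counting intervals in the upper classes (29.9 to 40.1 and 22.2 to 43.9), and in the humanized library at 2.17, 5.07, 18.6 and 41.9 CPM. H2-Aa went opposite ways between the upper classes of the libraries. In the wild-type library it was at 25.4 and 9.69 CPM (11 UMIs), and in the humanized one at 17.4 and 48.4 CPM. H2-Ab1 and H2-Eb1 had the same directions. For each of these genes the counting intervals of the upper classes did not overlap in either library. Psmb5 stayed between 226 and 288 CPM, and Jak1 between 85.2 and 104 CPM, in all classes of both libraries. Depth affects the lower classes, since a cell with few UMIs is more easily at 0.

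**Figure D4:**
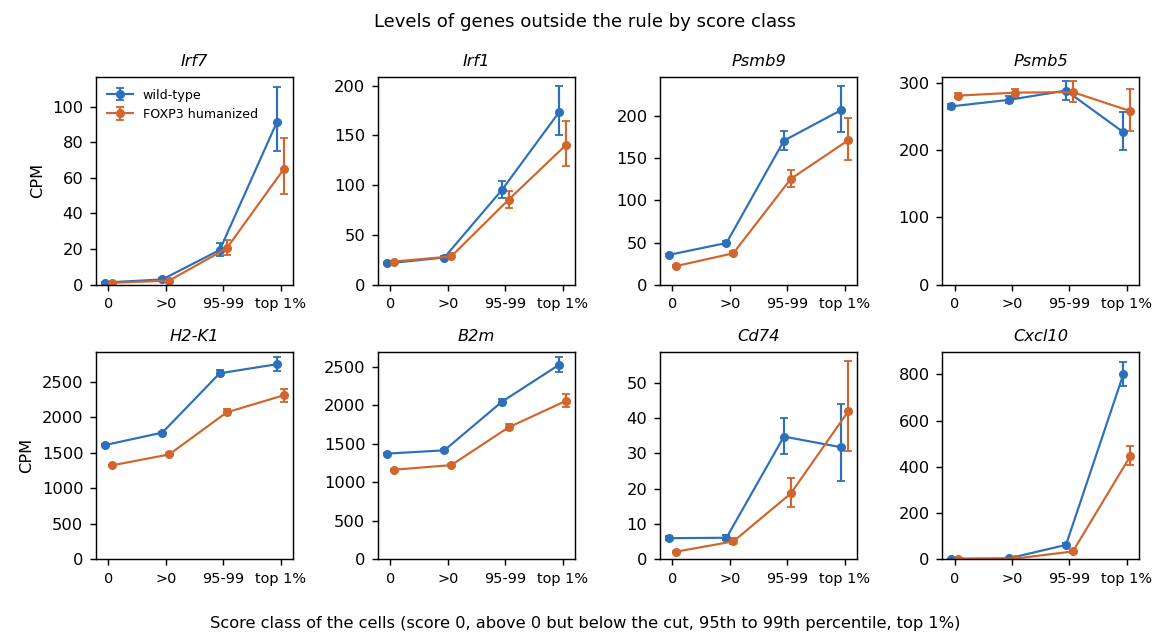
Level (CPM of summed UMIs) of 8 genes outside the rule in cells of score 0, above 0 but below the limit, the 95th to 99th percentile and the top 1%, by library; bars are exact Poisson 95% intervals of the summed counts. Irf1, Irf7 and Psmb9 are higher in both upper classes, Cxcl10 is highest in the top 1% (802 and 447 CPM), and Psmb5 is nearly level.

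The arms of the score overlapped in part. Both arms gave a UMI in 57.7% of wild-type and 56.1% of humanized interferon-high cells, GTPase genes alone in 27.2% and 30.2% (99 and 134 cells), and antiviral genes alone in 15.1% and 13.7% (55 and 61 cells). With each cell thinned to 5000 UMIs the shares with both were 31.9% and 32.2%, so an arm without a UMI was below detection at this depth and not shown to be absent.
Over all eligible cells, thinned, an antiviral UMI was found in 20.7% of wild-type cells with a GTPase UMI and in 4.98% of those without, and in 19.5% and 4.01% in the humanized library. The 2 arm scores had a Pearson correlation over cells of 0.41 and 0.27 (Spearman 0.22 and 0.23, 6606 and 9537 cells). Within interferon-high cells Pearson's r was 0.14 and -0.06 and Spearman's rho -0.31 and -0.46 (364 and 444 cells), where the limit on their sum pushes the arms apart. All points of a library share its depth and droplet background, and these values are descriptions.

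Cells with GTPase UMIs alone and cells with antiviral UMIs alone differed in genes that the rule did not use. Of 7680 genes compared, 142 (1.85%) were called higher in GTPase-only and 31 (0.404%) in antiviral-only cells in both libraries. The median log2 ratio over all 7680 was 0.10 and 0.25, toward GTPase-only cells, and the ratios were not centred on it. The genes named for this comparison were chosen after their values were seen. GTPase-only cells carried more Iigp1, at 45.9 and 51.8 CPM against 2.57 and 5.44 CPM in antiviral-only cells. Ubd, a ubiquitin-like modifier, was at 57.2 and 67.3 CPM against 6.43 and 4.08 CPM. Cd74 was at 55.5 and 34.5 CPM against 10.3 and 4.08 CPM.
H2-Ab1 had 73 and 26 UMIs in GTPase-only cells and 0 in antiviral-only cells of either library, a log2 ratio of 3.42 and 1.88 with 3 counts set in place of 0 and an interval from 3.09 and from 1.47 upward. Irf1 was at 143 and 139 CPM against 38.6 and 70.7 CPM, and Irf8, another IRF factor, at 18.7 and 25.9 CPM against 2.57 and 6.79 CPM. The immunoproteasome genes stood on the same side, Psmb9 at 207 and 174 CPM against 55.3 and 51.6 CPM, and so did Tap1, at 123 and 161 CPM against 51.4 and 57.1 CPM. GTPase-only cells thus held more transcripts of these class II and immunoproteasome genes and of Tap1 in both libraries.
GTPase-only cells were also deeper, with median depths of 16320 and 10366 UMIs against 10906 and 8987 in antiviral-only cells. Genes of other lists stood on their side as well: 6 of 13 sterol synthesis genes compared, 4 of 18 S phase genes and 1 of 21 G2 and mitosis genes, with 0 of these lists on the antiviral side. The part of depth, of the median shift and of these lists in the comparison was not tested.

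Antiviral-only cells carried more Irf7, at 36.0 and 35.3 CPM against 5.10 and 5.18 CPM in GTPase-only cells. Usp18 had log2 ratios of -5.94 and -4.05 of GTPase-only over antiviral-only cells, with UMIs in 1 and 2 GTPase-only cells and in 14 and 9 antiviral-only cells; its 16 UMIs in the humanized library were under the minimum of 20, so it is not among the genes called. Ccl5 was at 82.3 and 23.1 CPM against 2.26 and 2.88 CPM, from 9 and 5 antiviral-only cells. Of 17 antiviral effectors compared 7 were called on the antiviral side, as were 2 of 7 nucleic acid sensors and adaptors. Of 7 ISG15 conjugation and ADP-ribosylation genes 0 were. Stat2 (-1.11 and -0.13) and Irf9 (-1.50 and -0.20), of the type I complex, were not called. Rtp4, Rigi, Oasl2, Apol9a, Sp100, Bst2, Ifi27l2a and Xaf1 stood on the antiviral side as well, with log2 ratios from -2.03 to -0.61.
So did Krt16, a keratin, at 135 and 72.0 CPM against 37.4 and 22.4 CPM, and Mt1, a metallothionein, at 6630 and 7714 CPM against 4415 and 4649 CPM. B2m was not called, with log2 ratios of -0.05 (interval -0.14 to 0.03) and 0.09 (-0.01 to 0.19). Cxcl10 went opposite ways, at 0.60 for wild-type and -1.35 for humanized cells, but 1 wild-type cell held 31.6% of its UMIs in these cells and without it the wild-type ratio was -0.73.

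**Figure D5:**
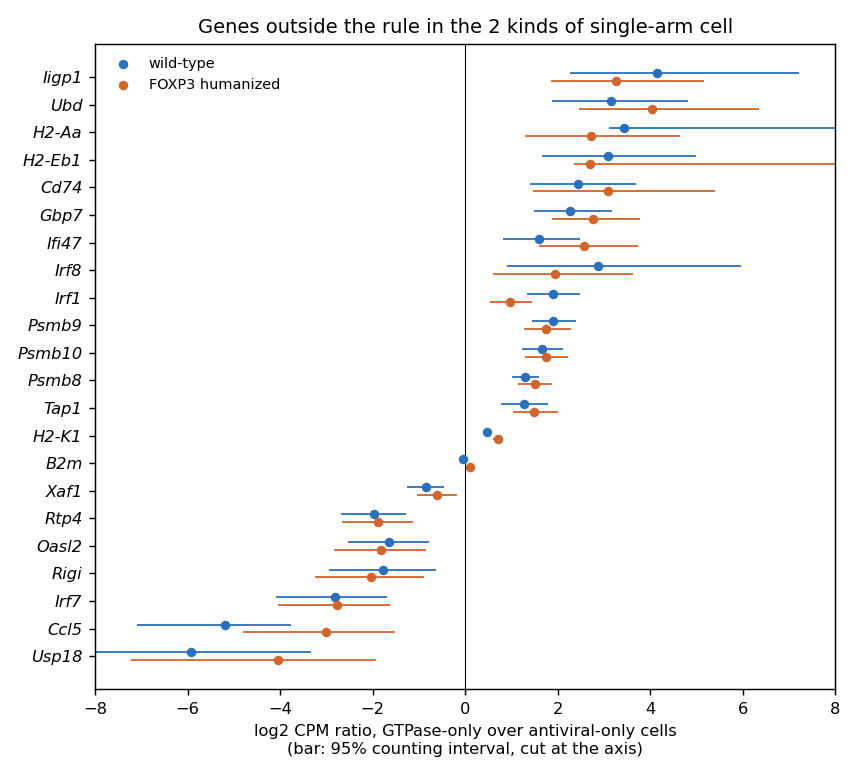
Log2 ratio of CPM, GTPase-only over antiviral-only interferon-high cells, for named genes outside the rule in the wild-type (blue) and humanized (orange) library; bars are 95% counting intervals, ended at the axis, and a gene with 0 UMIs on one side is drawn with 3 counts there. Iigp1 (4.16 and 3.25) and Usp18 (-5.94 and -4.05) stand at the ends and B2m near 0.

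Between genotypes, interferon-high cells of the humanized and the wild-type library were compared over 9797 genes with at least 50 UMIs in both sums together. Of these 75 (0.766%) were at least 1.5-fold higher and 732 (7.47%) lower in the humanized library with an interval excluding no difference. Over the same genes the rest gave 39 (0.398%) higher and 470 (4.8%) lower, and 254 of the 807 genes called in interferon-high cells were called the same way in the rest. The median log2 ratio of all genes was -0.15 in interferon-high cells and -0.17 in the rest. Centred on that median, the split was 193 higher and 364 lower. With 1 library per genotype none of this is a difference between genotypes beyond the 2 libraries.

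The interferon genes lay on both sides of that shift. Gbp2 (0.47) and Ifit3 (0.38) stood above and Isg15 (-0.28) and H2-K1 (-0.32) below 0, and none of these was called. Cxcl10 (-0.78), Usp18 (-0.76), Rsad2 (-0.65), Cxcl9 (-0.73) and Cd274 (-0.88) were called lower in the humanized library, and in the rest their ratios were -0.19, -0.69, -0.47, -1.29 and -0.66. Centred on the median, Cxcl10 (-0.62) and Usp18 (-0.60) stayed called, while Rsad2 (-0.50), Cxcl9 (-0.58) and Cd274 (-0.73, with an interval that includes 0) did not, and Gbp2 (0.63) was called higher. The Cxcl9 value rests on 1 wild-type cell: without it the ratio was 1.28 and called higher, from 20 and 43 UMIs. Without the cell holding most of each gene, Rsad2 (-0.56) and Cd274 (-0.75) were not called either. H2-Aa was at 22.7 and 23.2 CPM, log2 0.03, while in the rest it was at 2.98 and 1.24 CPM, log2 -1.26. Without the rest cells holding a leukocyte marker UMI, among them the wild-type cell with 32.9% of that library's class II UMIs in the rest, the levels there were 1.93 and 1.23 CPM, log2 -0.65.

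The ranked genes higher in the humanized library were Igfbp3, Plvap, Cxcl1, Ctla2a, Car9, Igfbp7, Cebpd and Fam180a. Cxcl1 was at 37.3 CPM in wild-type and 136 CPM in humanized interferon-high cells, log2 1.86, and in the rest at 26.9 and 67.0 CPM, log2 1.31. A single humanized cell with 8305 UMIs and 4 rule UMIs held 98.9% of the Igfbp3, 68.8% of the Plvap, 45.6% of the Ctla2a and 33.5% of the Igfbp7 UMIs of all interferon-high cells. That cell also held 17 of the 24 UMIs of endothelial markers in humanized interferon-high cells. Without it none of the 4 genes was called: Igfbp3 was left with 1 UMI against 0, and Plvap, Ctla2a and Igfbp7 had log2 ratios of 1.08, 0.22 and 0.33. Cxcl1, Car9, Cebpd and Fam180a remained called without the cell that held most of each.

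The ranked genes lower in the humanized library were Col6a6, Slc5a4b, Spint2, Arhgap4, Lypd2, Gzf1, Tmtc2 and AA388235. Col6a6, a collagen VI chain, was at 9.36 CPM in wild-type and 1.05 CPM in humanized interferon-high cells, log2 -3.16, and in the rest at 8.56 and 2.46 CPM, log2 -1.80. A wild-type cell held 69.7% of the Slc5a4b UMIs, and without it the ratio was -0.41 and the call was lost. Spint2, an inhibitor of serine proteases, was not called without its leading cell because it then had under 50 UMIs (log2 -2.37).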

How the data were processed

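Droplet cDNA libraries of 1 wild-type and 1 FOXP3 humanized tumour sample were analysed; oligo libraries are not analysed here. Per the file headers, PISA 1.0 made the matrices that the authors deposited, which hold whole UMI counts. The submitters' processing notes name GRCm39. The sources used here do not give aligner, annotation, strand, cell calling or doublet removal, and no doublet caller was run. The interferon-high cells and the gene lists were chosen with earlier results of these data known.

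UMIs were summed per library over interferon-high cells and the rest, scaled to CPM of the summed UMIs, and given exact Poisson or, for log2 ratios, exact conditional binomial 95% intervals (Python 3.11.15, scipy 1.17.1, numpy 2.4.6, pandas 2.3.3). Cells are not replicates, so no p-value is given and intervals, which ignore variation between cells, are too narrow for it. A gene at 0 was set to 3 counts. The ratios and calls were run on counts simulated without variation between cells. This checked the computation only and does not bear on calls that rest on few cells. The ranking named the 25 genes called higher and 10 called lower with the largest smaller ratio of the libraries and at least 50 UMIs in interferon-high cells, and 8 each way between genotypes. Outside the lists it skipped mitochondrial and sex-linked genes, predicted genes, ribosomal proteins, receptor segments and haemoglobins. Sums over interferon-high cells held 6519889 (wild-type) and 5741169 (humanized) UMIs. Gene lists hold only genes with a UMI, and 22649 of 26172 were shared.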

Additional observations from a re-analysis of the deposited data

Results flagged for a closer look

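Ctla2a, a cathepsin inhibitor gene, stood on opposite sides in the libraries: its log2 ratio of interferon-high cells over the rest was -0.60 for wild-type and 1.26 for humanized cells, with 6.6 against 9.98 CPM and 20.4 against 8.49 CPM. The difference between libraries was not tested. A single humanized cell held 45.6% of the Ctla2a UMIs in interferon-high cells. Without that cell 44 of the 117 humanized UMIs were left, so the humanized ratio above 0 rested on it.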

How the results depend on the processing

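No paired analysis was possible because each genotype had 1 library. Genes were judged by the smaller ratio of the libraries. Taking the 90th or 99th percentile as the limit gave shares of 10.6% or 1.07% for wild-type and 9.57% or 0.954% for humanized cells. Scoring after thinning to 5000 UMIs gave 14.3% and 11.7%, because a single rule UMI then reached the limit of 2.0. With at least 100 UMIs in each library 100 genes were higher and 0 lower, and with at least 20 expected UMIs, chosen after seeing the data, 124 and 18. A depth minimum of 10000 UMIs gave 6 lower genes, 5 of them among the 11 reported, and thinning gave 0. Between libraries, higher and lower genes numbered 122 and 257 at the 99th percentile, 28 and 226 with at least 200 UMIs, and 193 and 364 when centred on the median, also chosen afterwards; at the 90th percentile 49 were higher. Thinned to 5000 UMIs, both arms, GTPase genes alone and antiviral genes alone were found in 31.9%, 36.8% and 22.5% of wild-type and in 32.2%, 37.8% and 25% of humanized interferon-high cells.

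Values changed sign for Bdnf with the antiviral genes alone (0.13), for Cth and S100a3 at the 99th percentile (0.032 and 0.18), and, between libraries, for Ctla2a (-0.13) with the GTPase genes alone and for Plvap (-0.41) and Igfbp7 (-0.084) at a minimum of 10000 UMIs. Without the cell holding most of the gene, an alternative added after seeing the data, Cxcl9 between libraries became 1.28 and Cxcl10 between the arms in the wild-type library -0.73. The cause was not tested. No ratio is given where both sums held at most 3 UMIs. Of the other values, 637 for single genes kept direction and call and 109 kept direction only. Of the shares and gene counts under the alternatives, 39 stayed and 25 moved. Moved means outside the reported interval for a share, or by more than 1.5-fold for a count. Removing cells with a leukocyte marker UMI was also added afterwards. Counts of 20 to 50 UMIs limit the genes named at the lowest levels, and 74 and 92 interferon-high cells rested on 2 and 3 rule UMIs.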

Other observations

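Genes outside the lists and the ranking were also higher in interferon-high cells of both libraries. The next 15 by the smaller ratio were Phf11b, Apod, Oas1b, Ifi211, Serpina3g, Il18bp, Ubd, Ccl8, Gja4, Apol9b, Trim12a, Oas1c, Trim30d, Sp110 and Tmem140. Il18bp, a secreted inhibitor of interleukin 18, had log2 ratios of 2.74 and 4.27. Ubd, a ubiquitin-like modifier, had 2.80 and 2.74. Serpina3g, a serine protease inhibitor, had 2.90 and 3.11. Apod, a lipid-binding protein of the lipocalin family, had 3.57 and 3.97. Ccl8, a chemokine, had 2.89 and 2.66, and Gja4, a gap junction channel, had 2.65 and 2.62 with 13.3% of its UMIs in 1 cell.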
